A study of Mus musculus with 18 samples.

Results

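The complement genes described here are the components C3, C4b, C2, Cfb and Cfd and the regulators Serping1 and Cd55. These 7 of the 23238 gene symbols in the count tables were picked by name, with their CPM (read counts scaled to the size of each library) in the 4 groups already known. Their levels and differences are therefore given as a description, and no test supports the choice. RNA was profiled in 18 libraries of sorted cells from the small intestine of adult C57BL/6J mice. Intestinal stromal cells (IntSCs) came from control mice (WT, n = 6) that carried PDGFRb-CreERT2 and the Tomato reporter, and from mice (KO, n = 5) that carried floxed Lats1 and Lats2 alleles besides that Cre and reporter. Lacteal lymphatic endothelial cells (LECs), from the lymph vessel at the core of each villus, came from the same genotypes (WT, n = 4, and KO, n = 3). All 4 groups thus shared the Cre and the reporter, and the Cre is activated by tamoxifen.

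Pdgfrb drives the Cre in fibroblasts, pericytes and some smooth muscle cells, so Lats1 and Lats2 were targeted in the IntSCs and not in the LECs. LATS1 and LATS2 are the Hippo pathway kinases that keep YAP and TAZ out of the nucleus. A LEC library labelled KO is from LECs of a mouse whose stromal cells had been targeted. Before sorting, the muscle layer and mesenteric fat were stripped off, and blood cells and epithelial cells were depleted with beads, as were endothelial cells for the IntSCs.

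Complement is a cascade of plasma and tissue proteases that marks microbes and debris for removal. The classical and lectin pathways activate C4 and C2, which form an enzyme that splits C3. The alternative pathway reaches the same step through factor B (Cfb), which factor D (Cfd) cleaves. The C1 inhibitor (Serping1) blocks the first proteases of the cascade, and decay-accelerating factor (Cd55) takes the C3-splitting enzymes apart on the cell surface. Most circulating complement is made in the liver, and fibroblasts and endothelial cells also make several components locally.

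Total counts ranged from 5361250 to 10549233 per library. The 10 LEC markers summed to 9475 to 15793 CPM in the 7 LEC libraries and to 322 to 735 CPM in the 11 IntSC libraries, and the 9 stromal markers summed to 8070 to 17908 CPM in IntSCs and to 340 to 2189 CPM in LECs, so that the libraries matched their labelled cell types. Lats1 and Lats2 do not check the genotype labels, because the libraries read the 3′ end, which may still be transcribed when inner exons are gone. Lats1 was at 12.5 to 21.6 CPM in KO IntSCs and at 0 to 29.9 CPM in WT IntSCs, and Lats2 at 78.4 to 133 and 40.8 to 112 CPM. Xist was present in 2 of 6 WT IntSC, 2 of 5 KO IntSC, 2 of 4 WT LEC and 1 of 3 KO LEC libraries, so every group mixed libraries with and without it. The labels do not say whether replicates came from separate mice. The study's figure legends give 5 to 6 mice per group from 3 independent experiments for the IntSCs. For the LECs they give 3 to 4 mice per group from 2 experiments. They do not assign libraries to mice or experiments, so that p-values measure only the spread between libraries. Floors cover counting error only, while SEs and 95% intervals of log2 fold changes come from the edgeR fit and include the spread between libraries.

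In the GENCODE vM21 annotation of mm10, 4 of the 7 genes lie on chromosome 17. C4b spans 34728380 to 34743882, Cfb 34856374 to 34862518, C2 34862604 to 34898265 and C3 57203970 to 57228136, all on the minus strand. C2 ends 85 bases before Cfb begins, and the annotated read-through gene Gm20547 overlaps the last 500 bases of both, so that their reads may have been divided between annotations. Serping1 is at chr2:84765387-84775444 (minus strand), Cfd at chr10:79890853-79892655 (plus strand) and Cd55 at chr1:130439027-130462744 (minus strand).

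The RefSeq promoter table (GRCm38.p6) held 3 of the 7 members. The promoter of C3 is shown because C3 differed most between the LEC groups. It is given 5′ to 3′ on the minus strand, chr17:57228087-57228386, from 250 bases before to 50 bases after the annotated start. Capitals mark 2 motifs looked for after the sequence had been read, on both strands. They are the C/EBP-type octamer TTGCGNAA, 45 bases before the start, and the TATA box letters TATAAA, 14 bases after it.
C3 promoter: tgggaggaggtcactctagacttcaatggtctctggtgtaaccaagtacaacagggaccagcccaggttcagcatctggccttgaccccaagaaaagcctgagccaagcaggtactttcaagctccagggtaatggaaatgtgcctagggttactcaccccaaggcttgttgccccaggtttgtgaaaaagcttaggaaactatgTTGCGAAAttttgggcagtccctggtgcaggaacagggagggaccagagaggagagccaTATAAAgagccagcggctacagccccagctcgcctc
The octamer was found in 0.798% and the TATA box letters in 13.6% of 32841 mouse promoters of this length. The TEAD motif GGAATG (in 14.7% of promoters), the STAT motif TTCNNNGAA (8.30%) and the NF-kB motif (4.51%) were not found in the C3, Cfd or Cd55 windows. These matches are letters in a window only, and they do not show binding.

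C4b has a near copy, C4a, 65209 bases away on the same strand. The annotated C4b and C4a transcripts were 96.1% identical over 5367 aligned bases and 98.0% identical over the last 500 bases of C4b, the region that 3′ libraries read. The last 60 coding bases of C4b, ending in its stop codon, are shown because C4a holds the same 60 bases with 0 mismatches.
C4b coding end: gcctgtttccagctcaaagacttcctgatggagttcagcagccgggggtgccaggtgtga
C4a, same stretch: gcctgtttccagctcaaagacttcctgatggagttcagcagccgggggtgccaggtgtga
Of the 451 windows of 50 bases within that last stretch of 500, 38.1% also occurred in a C4a transcript. How the authors' counting divided such reads is not given in the sources used here, and C4b counts are uncertain to that extent.

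C3, the protein on which all complement pathways converge, was lower in every KO LEC library than in any WT LEC library. The 4 WT LEC libraries were at 279, 152, 224 and 199 CPM (counts of 2939, 1237, 2393 and 2000). The 3 KO LEC libraries were at 23.6, 13.8 and 25.8 CPM (counts of 166, 126 and 199). The lowest WT LEC library thus stood far above the highest KO LEC library. The fitted log2 fold change of KO against WT LECs was -3.33 ± 0.40 (SE), or 10.04-fold lower, and C3 ranked 1 of 10639 genes by p (edgeR quasi-likelihood test, adjusted p = 0.0116). The adjusted p places C3 among all genes and does not test the choice of C3. Without the third WT LEC library the log2 fold change was -3.32 with an adjusted p of 0.111 (edgeR), and 0 of all genes passed the threshold. In bulk RNA, fewer cells that express a gene and less RNA per cell cannot be told apart.

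In IntSCs, the targeted cells, the C3 groups overlapped. C3 ranged from 931 to 1458 CPM in WT IntSCs (median 1256). The 5 KO IntSC libraries were at 843, 928, 808, 1060 and 989 CPM. The lowest 3 KO libraries lay below all WT libraries, and the highest KO library lay between WT values. On the log2 scale the fitted difference was -0.41 ± 0.16 (SE), with an adjusted p of 0.356 (edgeR). In LECs the KO to WT difference of C3 was larger than in IntSCs: the interaction, coded as the IntSC difference minus the LEC difference, was 2.99 ± 0.33 log2 units (SE; edgeR adjusted p = 1.32e-05). C3 was 1 member of 6 past the threshold in the interaction, against 1.70% of 14015 genes. This adjusted p also describes a gene chosen with its levels known and does not test that choice.

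Between the control cell types, C3 stood at 1222 ± 253 CPM in WT IntSCs (SD, n = 6) and 214 ± 53.0 CPM in WT LECs (SD, n = 4), without overlap. Its level thus fell into the order WT IntSC, KO IntSC, WT LEC and KO LEC, of which the first and second groups overlapped and the others did not. The comparisons of KO with WT LECs and of WT LECs with WT IntSCs share the 4 WT LEC libraries, and those of the IntSCs share the WT IntSC libraries.

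**Figure D1:**
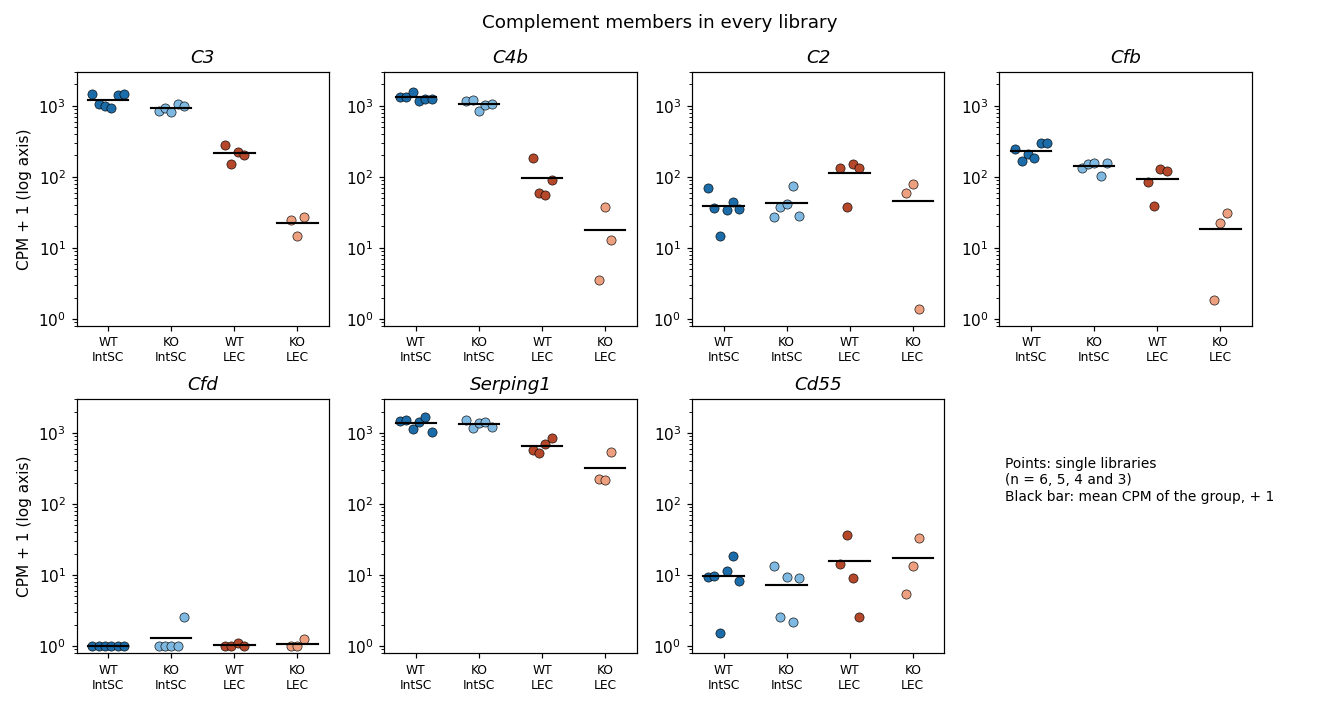
CPM + 1 on a log axis for each of the 7 members, with 1 point per library in the 4 groups and a bar at the group mean. C3 is at 152 to 279 CPM in WT LECs and at 13.8 to 25.8 CPM in KO LECs, while the WT and KO IntSC points overlap, and Cfd sits at or near 0 throughout.

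C4b, the C4 protein of the classical pathway, showed the same separation of LEC groups with a wider spread. WT LECs were at 183, 58.2, 55.3 and 89.2 CPM and KO LECs at 2.56, 36.5 and 11.9 CPM. Every KO value lay below every WT value, and KO LEC 2 came nearest to them. The fitted log2 fold change of -2.50 ± 0.79 (SE) did not pass the threshold (adjusted p = 0.396, edgeR). WT LEC 1, with the highest C4b, also had the highest summed stromal markers of the LEC libraries.

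In IntSCs, C4b ranged from 1156 to 1538 CPM in WT (median 1285) and was at 1159, 1186, 839, 1023 and 1075 CPM in KO. KO IntSC 1 and 2 lay above the lowest WT library and the remaining 3 below it. KO IntSCs differed by a log2 fold change of -0.31 ± 0.15 (SE), and edgeR gave an adjusted p of 0.490. C4b was 13.6-fold lower in WT LECs than in WT IntSCs (log2 fold change -3.77 ± 0.34). C4a took 10.7% to 16.4% of the summed C4a and C4b counts in the 11 IntSC libraries, 8.94% to 25.7% in WT LECs and 32.4% to 35.1% in KO LECs, where the summed counts were only 27 to 515.

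C2, the protease partner of C4, differed from the other components in being higher in WT LECs than in WT IntSCs. WT IntSCs ranged from 13.9 to 68.0 CPM (median 35.2), and WT LECs were at 134, 36.0, 153 and 131 CPM. Of the 4 WT LEC libraries, 3 lay above all WT IntSC libraries, and WT LEC 2 lay among them. WT LECs exceeded WT IntSCs by 1.57 ± 0.43 log2 units (SE) with an adjusted p of 0.0151 in edgeR, which rose to 0.0525 without WT LEC 3. KO LECs were at 57.6, 78.1 and 0.389 CPM, the last being 3 counts in KO LEC 3. KO LEC 1 and 2 lay above WT LEC 2, and the groups overlapped (log2 fold change -1.31 ± 0.96, edgeR adjusted p = 0.949). KO IntSCs, at 26.5 to 74.3 CPM, overlapped the WT IntSC range (log2 fold change 0.11 ± 0.36).

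Cfb, the catalytic subunit of the alternative pathway enzyme, was lower in KO than in WT libraries of both cell types. WT IntSCs ranged from 165 to 300.003 CPM (median 227), and KO IntSCs were at 134, 149, 156, 101 and 158 CPM. All 5 KO IntSC libraries lay below all 6 WT libraries. The highest KO and the lowest WT value, 158 and 165 CPM, were close. Cfb was the 1 member of 6 tested whose IntSC groups did not overlap, against 2.82% of 12421 genes. Its log2 fold change of -0.74 ± 0.20 (SE) fell just outside the threshold (adjusted p = 0.0710, edgeR), and DESeq2 put it inside (adjusted p = 0.0160).

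In LECs, Cfb was at 82.6, 38.1, 127 and 120 CPM in WT and at 0.855, 21.5 and 29.8 CPM in KO. The groups did not overlap, and KO LEC 1 held only 6 counts. Their log2 fold change was -2.39 ± 0.87 (SE), and edgeR gave an adjusted p of 0.484. WT LECs were also below WT IntSCs (log2 fold change -1.35 ± 0.32, edgeR adjusted p = 0.00725).

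Cfd, the factor D protease that is a known product of fat cells, was close to absent. It had 0 counts in 15 of 18 libraries, 12 counts in KO IntSC 5, 1 count in WT LEC 3 and 2 counts in KO LEC 3. Such counts did not pass the filter on low counts, and no fold is given. A count of 0 allows up to 3 counts in a library, which is at most 0.621 CPM in any of the 18 libraries. Of 8 fat cell markers, Lep and Retn were at 0 in all 18 libraries, and Adipoq and Cidec were at 0 or under 1 CPM. Plin1 reached 6.20 CPM and Car3 49.4 CPM in single libraries, and Lpl and Plin4 were present in all 4 groups, at means of 40.8 to 112 and 46.6 to 81.9 CPM. The list summed to 41.9 to 269 CPM over the 18 libraries, and its part in the Cfd counts was not tested.

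Serping1, the C1 inhibitor, had the smallest fitted genotype difference in IntSCs of the 6 members tested. WT IntSCs ranged from 1026 to 1667 CPM (median 1432) and KO IntSCs from 1165 to 1511 CPM. The KO range lay wholly inside the WT range. Its log2 fold change was -0.027 with a 95% interval from -0.33 to 0.27, and its sign turned when single libraries were left out. WT LECs were at 576, 519, 710 and 856 CPM, all below the IntSCs (log2 fold change -1.05 ± 0.21, edgeR adjusted p = 0.00186). KO LECs were at 227, 217 and 532 CPM, with KO LEC 3 inside the WT range and the other two below it (log2 fold change -1.02 ± 0.33, edgeR adjusted p = 0.411).

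Cd55, which protects cells from the C3-splitting enzymes, was low and uneven. It ranged from 0.539 to 17.7 CPM in WT IntSCs and from 1.22 to 12.3 CPM in KO IntSCs. WT LECs were at 13.2, 36.0, 8.23 and 1.59 CPM and KO LECs at 4.42, 12.6 and 32.7 CPM. All 4 groups overlapped. The 95% interval of its log2 fold change ran from -2.12 to 1.14 in IntSCs and from -2.59 to 2.92 in LECs. With this spread between libraries, the intervals span several fold.

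**Figure D2:**
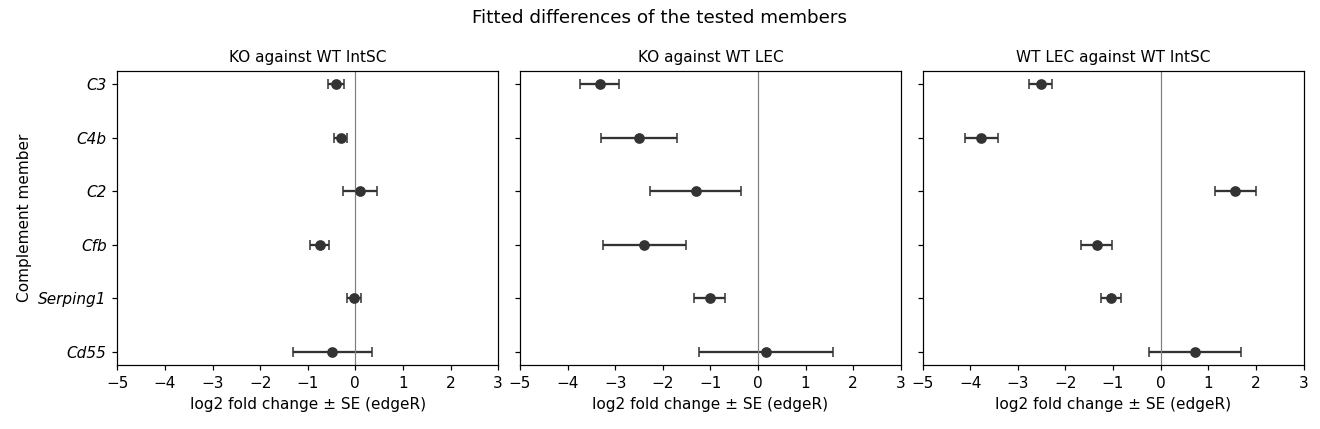
Fitted log2 fold change with its SE for the 6 members that passed the filter on low counts, in 3 panels for KO against WT IntSCs, KO against WT LECs and WT LECs against WT IntSCs. C3 stands at -3.33 in the LEC panel and at -0.41 in the IntSC panel, and C2 is to the right of 0 in the panel of WT cell types.

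Of the 6 members tested, 0 passed the threshold of an adjusted p under 0.05 between KO and WT IntSCs, where 1.47% of 12421 genes did. In edgeR 3 members had an unadjusted p under 0.05, as had at least 1161 of the 12421 genes. DESeq2 called 1 member, Cfb, and 376 genes in all. Between KO and WT LECs 1 of 6 passed, against 0.0658% of 10639 genes, and 3 of 6 had every KO library below every WT library, against 5.80% of genes. Between WT LECs and WT IntSCs 5 of 6 passed, against 22.6% of 12203 genes, and 4 of 6 did not overlap, against 21.1%. Since the members were chosen on these levels, nothing is read from these counts. The median log2 fold change of the 6 members was -0.36 in IntSCs and -1.85 in LECs, beside medians of 0.0026 and -0.032 over all genes tested.

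Markers of some other cells moved with the LEC comparison, and those of others did not. The 6 submucosal and adventitial fibroblast markers summed to 213 to 469 CPM in WT LECs and 275 to 396 CPM in KO LECs. Most of these sums was Cd34 (means of 157 CPM in WT and 164 CPM in KO LECs) and Cd81 (97.4 and 138 CPM). Cd81 was higher in WT LECs than in WT IntSCs (mean of 38.5 CPM). Of the 5 markers of this list tested, 4 had positive log2 fold changes, and Ackr4 (means of 55.9 and 38.0 CPM) had a negative one. The part of fibroblasts in these sums was not tested. The smooth muscle, epithelial, fat cell and mesothelial sums also overlapped between the LEC groups. All 9 stromal markers had negative log2 fold changes in KO against WT LECs, with 0 past the threshold in edgeR and 3 with an unadjusted p under 0.05. Their summed level was 2189, 699, 716 and 659 CPM in WT LECs and 340, 433 and 605 CPM in KO LECs. No KO library reached the WT range. KO LEC 3 and WT LEC 4 were nearest, with stromal sums of 605 and 659 CPM, and C3 was at 25.8 CPM in the one and 199 CPM in the other.

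Per 1000 CPM of stromal markers, C3 was at 128 to 313 CPM in WT LECs, 31.8 to 69.5 CPM in KO LECs, 56.2 to 125 CPM in WT IntSCs and 75.0 to 115 CPM in KO IntSCs. The LEC groups stayed apart on this scale. C4b per 1000 CPM of stromal markers was at 77.2 to 135 CPM in WT LECs and 7.54 to 84.3 CPM in KO LECs, and the groups overlapped. In WT and KO IntSCs C4b was at 69.5 to 116 and 75.4 to 147 CPM on that scale. With the stromal sum as a covariate, a choice made after seeing the data, the log2 fold change of C3 in LECs was -2.98 (edgeR adjusted p = 0.113). The stromal sums themselves separated the LEC groups, and the part of stromal RNA in the C3 and C4b differences was not tested.

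The 4 hepatocyte markers Alb, Apoa2, Ttr and Fgb summed to 310 to 1931 CPM in WT LECs, to 189 to 307 CPM in KO LECs and to 24.9 to 180 CPM in the IntSCs. Their log2 fold changes in KO against WT LECs were all negative, with 0 past the threshold and 3 with an unadjusted p under 0.05 (edgeR). WT LEC 4 and KO LEC 2 had almost equal hepatocyte sums, 310 and 307 CPM, with C3 at 199 and 13.8 CPM. With the hepatocyte sum as a covariate, C3 was at -3.49 on the log2 scale (edgeR adjusted p = 0.0349). The hepatocyte sums themselves separated the LEC groups, and the part of liver RNA in the C3 difference was not tested. The 10 leukocyte markers summed to 183 to 502 CPM in WT LECs and 96.8 to 157 CPM in KO LECs. These sums were mostly the antigen-presentation genes H2-Aa and Cd74, with Cd3e and Cd79a at 0. Ptprc, Cd68, Adgre1, Csf1r, Lyz2 and Tyrobp had means of 0 to 3.11 CPM in WT LECs and 0.036 to 1.76 CPM in KO LECs. With the leukocyte sum as a covariate the log2 fold change of C3 was -3.19 (edgeR adjusted p = 0.492). This covariate mainly followed H2-Aa and Cd74, and the part of leukocytes in these differences was not tested.

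**Figure D3:**
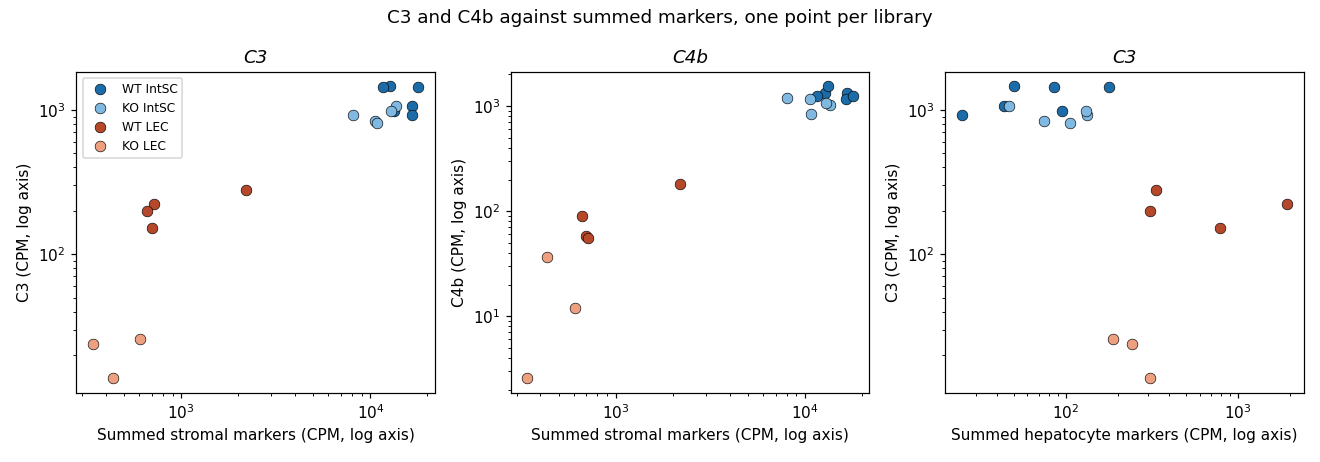
C3 (left) and C4b (middle) against summed stromal markers, and C3 against summed hepatocyte markers (right), in CPM on log axes with 1 point per library. C3 in the 3 KO LEC libraries lies at 13.8 to 25.8 CPM, below all WT LEC libraries, and both marker sums of the KO LEC libraries are also below those of the WT LEC libraries.

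Libraries with and without Xist gave the same order for C3 in LECs. With Xist, the WT LEC libraries 1 and 2 were at 279 and 152 CPM and KO LEC 1 at 23.6 CPM. Without Xist, WT LEC 3 and 4 were at 224 and 199 CPM and KO LEC 2 and 3 at 13.8 and 25.8 CPM. In IntSCs, the summed stromal markers were 11644 to 17908 CPM in WT and 8070 to 13581 CPM in KO, with 8 of 9 log2 fold changes negative and Col3a1 past the threshold (edgeR adjusted p = 0.0438). The log2 fold change of Cfb with the stromal sum as a covariate was -0.91 (edgeR adjusted p = 0.0923), and the part of the stromal shift in Cfb beyond this fit was not tested.

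The genes whose pattern over the 18 libraries was closest to each member were found by the root mean square difference of log2(CPM + 1), centred per gene, among 10727 genes. For C3 these were Gem (0.526 log2 units), Hoxc8 (0.580) and Rarres2 (0.582). Rarres2, which encodes the chemoattractant chemerin, averaged 338 CPM in WT IntSCs, 238 in KO IntSCs, 54.1 in WT LECs and 2.61 in KO LECs. C3 went through the same order of groups. For C4b they were Cygb (0.569), Col5a1 (0.646) and Col3a1 (0.647), of which the last encodes a fibrillar collagen and is one of the stromal markers.

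Col3a1 averaged 2244 CPM in WT IntSCs, 1189 in KO IntSCs, 142 in WT LECs and 17.5 in KO LECs. The nearest genes to C2 were Igtp (0.667), an interferon-inducible GTPase, Dalrd3 (0.699) and Zpr1 (0.721). Cfb was closest to Rcn3 (0.574), Leprotl1 (0.578) and Sspn (0.647), and Serping1 to Srsf5 (0.395), Setd5 (0.417) and Marveld1 (0.419). Cd55 had no close match, its nearest being Pxmp4 (0.890), Rufy3 (0.897) and Zfp358 (0.901). The nearest genes to Cfd, Pabpn1 (0.313), Ube2d3 (0.314) and Rps27a (0.325), were nearest only in varying little.

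The other genes of the pathway were taken from a list of 53, all present in the tables. Between KO and WT IntSCs 1 of the 24 tested rose, Cd93, and 0 fell, beside 1.47% of all genes called. Cd93, a surface glycoprotein of endothelial and myeloid cells first described as a receptor for C1q, was at 19.0 to 52.6 CPM in WT IntSCs (median 41.7) and at 91.9, 129.5, 117, 58.0 and 68.3 CPM in KO IntSCs. All KO libraries lay above all WT libraries. Its log2 fold change was 1.28 ± 0.28 (SE), with an adjusted p of 0.0229 (edgeR). The LEC markers summed to 322 to 483 CPM in WT IntSCs and 438 to 735 CPM in KO IntSCs. Most of these sums was Pdpn (means of 236 CPM in WT and 326 CPM in KO) and Nrp2 (128 and 172 CPM). Of the 8 LEC markers tested in IntSCs, 4 had positive and 4 negative log2 fold changes, with 0 past the threshold (edgeR). The part of LECs in the rise of Cd93 was not tested. The median log2 fold change of the 24 genes was -0.035, against 0.0026 for all genes.

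Between KO and WT LECs 0 of 24 passed the threshold in edgeR. An unadjusted p under 0.05 was reached by 3 of them, and by at least 802 of 10639 genes. The groups did not overlap for 2 of the 24, against 9.81% of all genes. The genes of both counts are named after their values were seen. Fcna, the lectin pathway sensor ficolin A, was at 12.7, 4.92, 8.98 and 37.5 CPM in WT LECs and at 44.0, 56.3 and 93.8 CPM in KO LECs (edgeR adjusted p = 0.518). C5ar2, a receptor for C5a, was at 5.13, 10.1, 19.6 and 48.9 CPM in WT LECs and at 0.427, 0 and 1.56 CPM in KO LECs (edgeR adjusted p = 0.545). Both gene levels separated the groups, in opposite directions, and 2 of 24 is a share near the 9.81% of all genes. Mbl2, the liver-made mannose-binding lectin, was at 0.380, 23.0, 72.2 and 28.4 CPM in WT LECs and at 0.285 to 0.656 CPM in KO LECs, with WT LEC 1 inside the KO range. The library with most Mbl2, WT LEC 3, also had the highest hepatocyte sum (1931 CPM). The other WT LEC libraries did not keep that order. WT LEC 4, with the lowest hepatocyte sum of them (310 CPM), had Mbl2 at 28.4 CPM, and WT LEC 1 (335 CPM) had it at 0.380 CPM. The part of liver RNA in the Mbl2 levels was not tested. The median log2 fold change of the 24 genes was -0.60, against -0.032 for all genes.

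Genes that start the cascade were among those that differed between the WT cell types. Of 30 genes tested, 3 were higher and 7 lower in WT LECs than in WT IntSCs, beside 22.6% of all genes called in either direction. Lower were the C1 proteases C1ra (1295 ± 385 CPM in WT IntSCs against 162 ± 43.9 CPM in WT LECs), C1rb, C1s1 (628 ± 186 against 45.6 ± 9.16 CPM) and C1s2. The log2 fold changes of these 4 ran from -2.84 for C1rb to -4.02 for C1s2. C1ra with C1rb and C1s1 with C1s2 are pairs of near copies, so that the division of reads within each pair is uncertain. Also lower were C4a (log2 fold change -3.48), with the reservation on C4 reads, and the scavenger collectin Colec12 (-4.22).

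C7, a component of the membrane attack complex, was at 5.43 to 29.0 CPM in WT IntSCs and had 0 counts in all LEC libraries, which puts it at least 40.9-fold lower in WT LECs against a floor of 3 counts per library. Higher in WT LECs were Fcna, Mbl2 and Cd93. Cd93 was at 38.1 ± 12.5 CPM in WT IntSCs and 106 ± 47.5 CPM in WT LECs (log2 fold change 1.47 ± 0.36, edgeR adjusted p = 0.00794). All 4 hepatocyte markers were also higher in WT LECs than in WT IntSCs past the threshold, and Mbl2 is known as a liver product. The part of liver RNA in the Mbl2 difference was not tested. The median log2 fold change of the 30 genes was -0.68, against -0.042 for all genes.

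**Figure D4:**
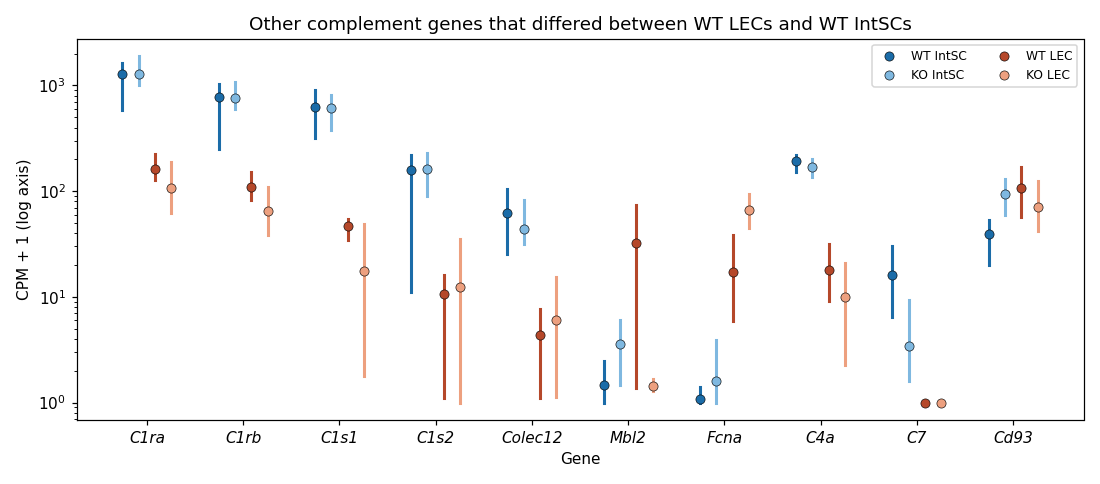
CPM + 1 on a log axis for the 10 complement genes outside the members that differed between WT LECs and WT IntSCs, with a point at the mean and a line from the lowest to the highest library of each group. The C1 proteases, C4a and C7 have lower means in both LEC groups, and Fcna and Cd93 are higher in WT LECs than in WT IntSCs.

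In the interaction 1 of 41 listed genes passed the threshold, a share near the 1.70% of all genes called. It was Mbl2 (interaction 8.58 ± 2.23 log2 units, edgeR adjusted p = 0.0463). Of 12 genes upstream of complement expression, such as Stat3 and Cebpb, 0 passed the threshold between KO and WT in either cell type, with 1 at an unadjusted p under 0.05 in each (edgeR). Among those that differed between WT LECs and WT IntSCs, Nfkbia was higher and Stat3 and Socs3 were lower, named here after their values were seen. Nfkbia alone passed the threshold of the interaction (1.04 ± 0.26 log2 units, edgeR adjusted p = 0.0364).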

How the data were processed

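For each library the authors deposited whole-number counts of QuantSeq 3′ reads per gene symbol, not normalised. The study's methods name TopHat and Cufflinks, and the submitters' processing notes name Bowtie2, edgeR and mm10. The counter and annotation are not given in the sources used here. The tables held 23282 rows and 23238 symbols, and counts of the 35 symbols on more than 1 row were summed. CPM used TMM factors over all 18 libraries. Comparisons used edgeR 4.0.16 in R 4.3.3 (TMM, filterByExpr, robust quasi-likelihood test, Benjamini-Hochberg, threshold 0.05) on the groups compared, or all 4 for the interaction, and were tested on simulated data. Total counts of 5361250 to 10549233 set the precision. DESeq2 1.42.0 and the other settings below were alternatives. Promoters came from RefSeq, and C4 transcripts from GENCODE vM21 were aligned with Biopython 1.88. The members and gene lists were chosen with earlier results of these data known. The genes named were the members, the listed complement genes past the threshold, the 3 closest genes to each member, and those said to be chosen after their values were seen. The values of 1 listed gene are not reported here.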

Additional observations from a re-analysis of the deposited data

Results flagged for a closer look

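The genotype difference of C3 differed between cell types, by 2.99 log2 units (edgeR interaction, adjusted p = 1.32e-05), since C3 was at 13.8 to 25.8 CPM in KO LECs and 152 to 279 CPM in WT LECs, while the IntSC groups overlapped. C3 was chosen with these levels known, so this is a description and no test of the choice.

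Of 35 groups examined for a library far from the rest of its group, 5 had one, where chance gives about 1.75. The KO LEC groups, with only 3 libraries, were too small for this check and were not examined. The gap to the nearest library, as a share of the range of the group, is given for each. WT LEC 1 had summed stromal markers of 2189 CPM against 659 to 716 CPM in the other WT LEC libraries (gap 0.963). WT LEC 2 had a total count of 7464241, against 10374749 to 10549233 in the others (gap 0.943). WT IntSC 6 had summed epithelial markers of 104 CPM against 0 to 16.4 CPM (gap 0.842). Cfd was at 1.55 CPM in KO IntSC 5 and 0 in the other KO IntSC libraries (gap 1), and at 0.0935 CPM in WT LEC 3, which is 1 count, and 0 in the other WT LEC libraries (gap 1). A group with counts in only 1 library always has a gap of 1, as in both Cfd groups. The 5 groups are therefore not read as an excess over 1.75.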

How the results depend on the processing

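C3 in LECs kept its direction under every setting tried, between -3.50 and -3.08 on the log2 scale with each library left out (edgeR adjusted p 0.0217 to 0.111). Its call was lost without WT LEC 3 and with the stromal or leukocyte covariate, where 0 members were called. DESeq2 called 1 member in IntSCs, and all 4 groups in one fit called 4 in LECs (C4b, Cfb and Serping1 besides C3) and 3 between WT cell types. With single libraries left out, the members called were 0 to 1 in IntSCs (Cfb passed without WT IntSC 2), 0 to 1 in LECs, 4 to 5 between WT cell types and 1 to 2 in the interaction. Over all genes, IntSC calls went from 183 to 376 (DESeq2), 27 (all groups), 116 (stromal covariate) and 99 to 186 (libraries left out). LEC calls went from 7 to 309 (DESeq2), 32 (no filter), 538 (all groups), 11 (Xist covariate), 3 (stromal and hepatocyte covariates), 1 (leukocyte covariate) and 0 to 16 (libraries left out, 0 without WT LEC 3 and 16 without KO LEC 2). DESeq2 called 1054 genes in the interaction, and libraries left out gave 161 to 461. The cause of these shifts was not tested. Leaving out Rn45s, the ribosomal RNA precursor, raised the mean CPM of C4b in WT IntSCs from 1307 to 1539 and changed no call of a member.

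The sign of some differences that had not passed the threshold turned. With libraries left out, Serping1 in IntSCs ran from -0.093 to 0.033, C2 in IntSCs from -0.21 to 0.35, Cd55 in LECs from -0.80 to 1.11, Cd55 between WT cell types from -0.23 to 1.10, and the Cd55 interaction from -1.53 to 0.38. With the stromal covariate Serping1 was 0.18 and Cd55 0.28 in IntSCs, and with the leukocyte covariate C2 in LECs went from -1.31 to 1.31 and Cd55 from 0.16 to -2.50.

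Same-numbered libraries of different groups correlated weakly in their deviations from the group means, on average 0.0204 between IntSC genotypes, -0.0039 between LEC genotypes, 0.0360 between WT cell types (all 4 pairs positive, 0.023 to 0.045) and 0.0035 between KO cell types. No pair exceeded 0.1, and the numbers were not taken to pair the libraries. Xist was above 100 CPM in libraries 1 and 2 and below it in libraries 3 and 4 of both WT cell types. In contrast, KO IntSC 2 had Xist at 1610 CPM and KO LEC 2 at 0.109 CPM, so those 2 libraries did not match. Whether same-numbered WT libraries came from the same mice was not tested. The replicate block gave Cd55 in LECs at -0.49, 3 genes called in LECs, 1596 between WT cell types and 16 in the interaction, and C2 lost its call between WT cell types (edgeR adjusted p = 0.102).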
